A study of Mus musculus with 29 samples.

Results

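The 40 genes described here are interferon-stimulated antiviral genes, chosen by name from the type I interferon response, with the guanylate-binding proteins and immunity-related GTPases left out. They are 40 of the 54532 genes in a table of RNA-seq counts from mouse colon, all 40 were found in it, and all 40 passed the filter on low counts. The table holds 29 mice in 9 groups, 6 models of colitis and 3 control groups, with 1 library a mouse. The study set these models side by side to compare the transcriptomes of differently caused colitis. Below, every model is set against the untreated group that its strain and genotype labels point to, called its own control. Whether that group matches the model rests on the labels, and the check of labels below found a mismatch for TCT (T-cell transfer).

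The wild-type controls (n = 3) were untreated mice labelled Balb/C. Mice given DSS (n = 3), dextran sulfate sodium, which injures the colon lining, carried the same strain label, drank 3% DSS for 5 days and were culled at day 10, while the study's methods name C57BL/6 mice for this model and an earlier cull. DNBS mice (n = 3), also labelled Balb/C, received 3 mg of this hapten, dinitrobenzene sulfonic acid, in 50% ethanol (200 µl) into the rectum. The IL-10 blockade group (n = 4) is labelled Balb/C with an IL10 blocking antibody, the dose text gives 750 µg of antibody against the IL-10 receptor and culling within 4 weeks, and the study's text describes an IL-10 deficiency model. The Rag1-/- controls (n = 3) are labelled C57BL/6 Rag1-/- and untreated. T-cell transfer (TCT, n = 3) and anti-CD40 (n = 3) carry that same genotype label. TCT mice received naive CD4 T cells and were culled after 6 to 8 weeks, and the protocol text calls the recipients Rag2-/-. Anti-CD40 mice received 50 µg of the agonist antibody and were culled after 7 days. The Rag2-/- controls (n = 3) are labelled Balb/C Rag2-/- and untreated, and TRUC mice (n = 4), which develop colitis spontaneously, are labelled Balb/C Tbx21-/- x Rag2-/-. Mice that lack Rag1 or Rag2 make no mature T or B cells, so TCT mice have only the T cells they were given. The labels give no ages, and the study's methods describe young adult donors and recipients for T-cell transfer. The labels do not state litters or cages, so p values measure the spread between these mice only.

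Type I and type III interferons bind their receptors and activate JAK kinases, which phosphorylate STAT proteins. With IRF9 these form a complex that binds the interferon-stimulated response element (ISRE) in the promoters of antiviral genes. Interferon-gamma, made by T cells, innate lymphoid cells and natural killer cells, acts mainly through the gamma-activated site (GAS), and many of the same genes answer to both. In the gut these genes defend the lining against viruses, and several are also active in the absence of infection.

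Promoter sequence is shown for 6 members whose levels carry the results below. It was taken from RefSeq (build GRCm38.p6), which held a promoter for 31 of the 40 members (Mx1, Mx2, Oas2, Ifi27l2a, Rtp4, Parp9, Parp14, Dhx58 and Usp18 were not in it). The letters searched on both strands in the 250 bases before the start were GAAANNGAAA, the ISRE core, and TTCNNNGAA, the GAS. Each line gives the 130 bases before the start, 5′ to 3′ on the gene's own strand. Capitals mark the ISRE core in the first 4 (in Ifit1 and Rsad2 on the other strand), there is no match in the Ifit2 line, and capitals mark the GAS in Irf1. The regions are chr4:156200819-156200948, minus strand (Isg15), chr19:34640759-34640888, plus strand (Ifit1), chr5:120777660-120777789, minus strand (Oas3), chr12:26456453-26456582, minus strand (Rsad2), chr19:34550564-34550693, plus strand (Ifit2) and chr11:53769884-53770013, plus strand (Irf1).
Isg15: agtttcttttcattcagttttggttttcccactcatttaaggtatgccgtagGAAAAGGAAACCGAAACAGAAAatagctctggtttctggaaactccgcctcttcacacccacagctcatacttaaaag
Ifit1: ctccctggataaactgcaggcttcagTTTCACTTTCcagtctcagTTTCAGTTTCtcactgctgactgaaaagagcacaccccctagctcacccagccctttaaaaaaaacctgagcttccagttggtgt
Oas3: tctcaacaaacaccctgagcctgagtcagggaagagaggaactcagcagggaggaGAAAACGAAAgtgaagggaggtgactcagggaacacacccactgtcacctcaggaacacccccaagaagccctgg
Rsad2: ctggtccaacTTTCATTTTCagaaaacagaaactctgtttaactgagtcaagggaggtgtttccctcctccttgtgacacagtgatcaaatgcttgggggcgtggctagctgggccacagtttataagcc
Ifit2: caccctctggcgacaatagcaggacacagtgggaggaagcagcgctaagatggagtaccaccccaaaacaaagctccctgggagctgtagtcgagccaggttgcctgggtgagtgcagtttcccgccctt
Irf1: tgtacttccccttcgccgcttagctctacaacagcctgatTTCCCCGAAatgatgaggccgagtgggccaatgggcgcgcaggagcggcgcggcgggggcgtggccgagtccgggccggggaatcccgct

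Isg15 holds 3 overlapping ISRE cores and Ifit1 holds 2. The ISRE core was found in 12 of 31 members (38.7%, against 2.98% of 32851 promoters of the same length) and the GAS in 5 of 31 (16.1%, against 7.02%). The Ifit2 window of 250 bases holds 1 GAS, farther upstream than the stretch printed. A match describes letters and not a binding site, and a missing match describes this window only. The window was taken at 1 start per gene. Ifit2, Irf1, Irf9, Sp100 and Trim30a have 2 starts in the promoter set, and their other start is not covered here. The starts used for Irf9 and Slfn5 lie 414 and 753 bases from the 5′ end of the gene in the GENCODE annotation.

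Total counts were 10725564 to 14977094 per mouse (median 12287039), and levels are given in CPM, counts relative to the TMM-scaled library total. A check of the labels found H2-Ea, a class II gene that BALB/c mice transcribe and C57BL/6 mice do not, at 67.7 to 318 CPM in every mouse of the Rag1-/- controls, anti-CD40, the Rag2-/- controls and TRUC, and at 0.104 CPM or less in every mouse of the other 5 groups, among them the TCT mice and the wild-type controls. Transcripts of Rag1 reached 1.85 to 2.88 CPM in TCT and at most 0.295 CPM in the mice labelled Rag1-/- that received no cells or anti-CD40. Rag2 transcripts were at 0.442 to 8.49 CPM in the Rag1-/- controls, anti-CD40, the Rag2-/- controls and TRUC, and 2.12 to 4.63 CPM of Tbx21 was found in TRUC. H2-Ea goes against the strain labels of all groups but the Rag2-/- controls, TCT and TRUC, and in DSS it is as in the strain that the study's methods name. Il10 transcripts were at 5.23 to 11.5 CPM in IL-10 blockade, 0.0762 to 0.266 CPM in the wild-type controls and 0.881 to 7.04 CPM in DSS. Transcripts of a gene's undeleted part are no check of a knockout. Group names below are those of the labels. Because TCT and the Rag1-/- controls differ in H2-Ea, a further comparison sets TCT against wild-type mice, and one sets anti-CD40 against Rag2-/- mice.

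No member fell past the threshold in any of the 6 models (FDR, the Benjamini-Hochberg adjusted p of edgeR's quasi-likelihood test over 18616 genes, under 0.05), nor was any lower at an unadjusted p under 0.05 or by DESeq2. Over all genes tested, the share that fell was 2.21% in DNBS, 10.7% in anti-CD40, 14% in TCT, 16.3% in DSS, 23.4% in TRUC and 26.1% in IL-10 blockade. In DSS all 40 members rose, while 17.7% of all genes tested did, with a median log2 fold change of 2.20 over the members and 0.02 over all genes. A log2 fold change is given below with its standard error (SE) after ±. In IL-10 blockade 39 of 40 rose (27.2% of all genes, median 1.99). In TRUC 23 rose (22.4% of all genes, median 1.02). TCT mice showed a rise of 17 members against the Rag1-/- controls (16.1% of all genes, median 0.97) and of 35 against the wild-type controls (16.9% of all genes, median 1.65). Anti-CD40 mice had 14 members higher than in the Rag1-/- controls (10.9% of all genes, median 1.03) and 16 higher than in the Rag2-/- controls (12.4% of all genes). In DNBS 7 rose (3.95% of all genes, median 1.02), namely Irf9, Ifit1, Oas3, Oasl2, Ifitm3, Isg15 and Rtp4. Leaving out 1 mouse lowered the count in TRUC to 15 without TRUC mouse 3 (19.9% of all genes in that fit) or Rag2-/- control 2 (19%). In TCT the count went to 8 without mouse 5 (12.7%) and to 9 without Rag1-/- control 3 (12.5%), and in anti-CD40 to 7 without Rag1-/- control 3 (6.04%) and to 9 without mouse 7 (4.97%). Fits on the 2 groups of a comparison alone moved the counts the other way in anti-CD40, to 32 with edgeR (11.8% of all genes in that fit) and 31 with DESeq2 (14.2%), and in TCT to 28 with DESeq2 (15.5%). In DNBS edgeR on the 2 groups gave 0 members (1.87% of all genes), with 22 higher at an unadjusted p under 0.05 and the median still at 1.02, and DESeq2 gave 10 (6.76%). Counts without overlap were higher than counts of calls in several models: every mouse lay above every control for 29 members in TRUC (28.8% of all genes), 22 in TCT against Rag1-/- (21.4%), 33 in anti-CD40 against Rag1-/- (19.2%), 22 in DNBS (15.6%) and 40 in IL-10 blockade (27.6%). In whole tissue, a change in the number of cells of a type and a change in RNA per cell cannot be told apart.

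**Figure D1:**
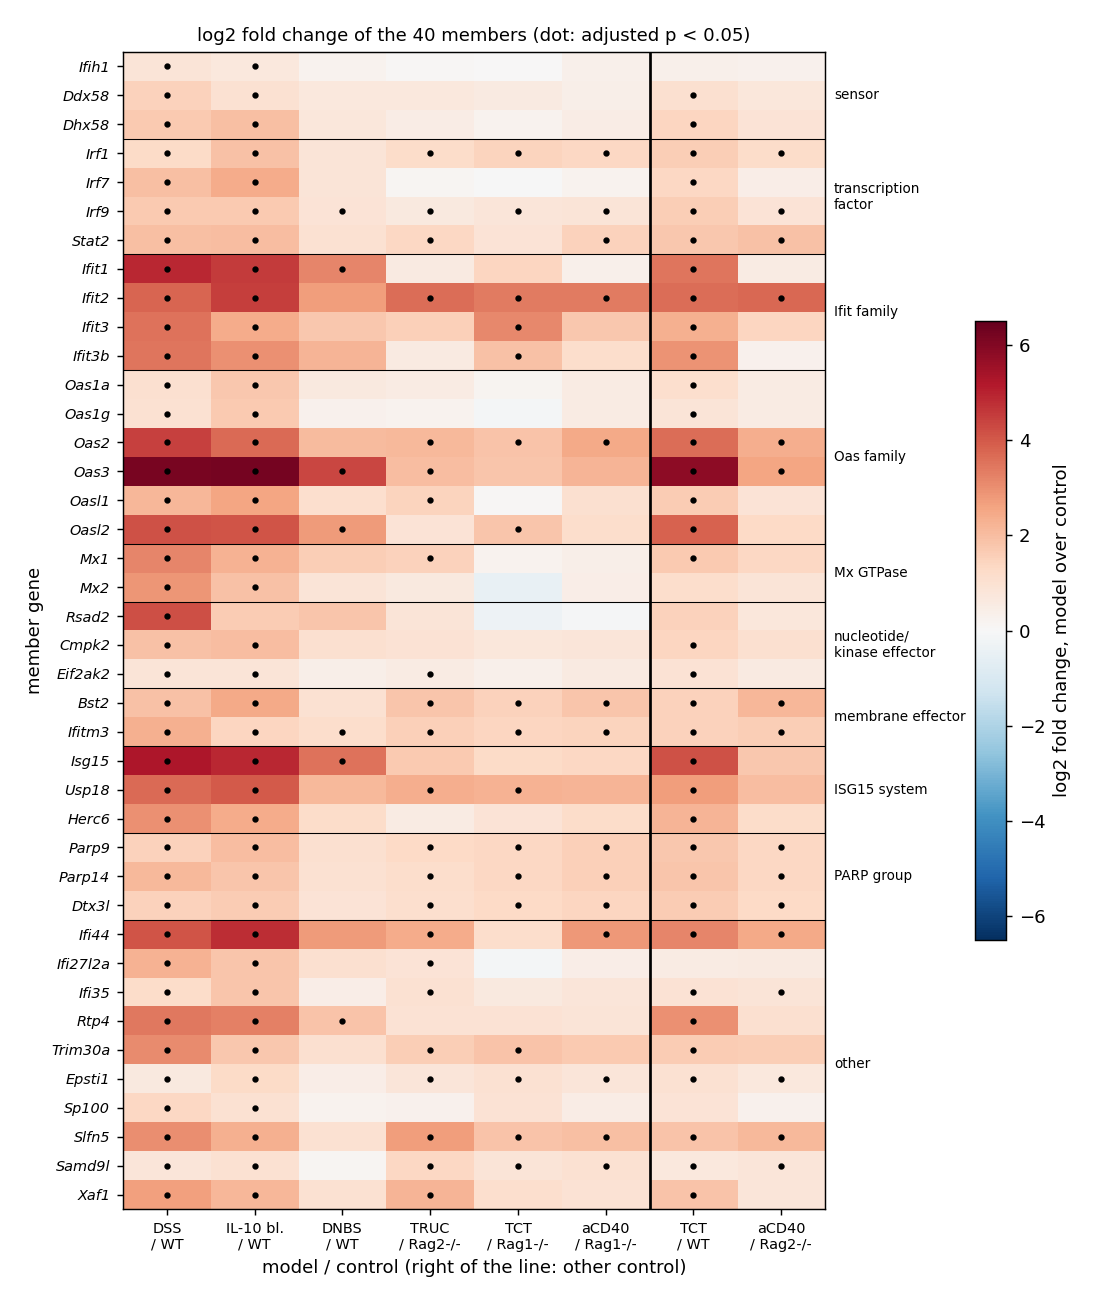
Log2 fold change of each of the 40 members (rows, grouped by role) in the 6 models against their own control and, right of the line, for TCT against the wild-type and anti-CD40 (aCD40) against the Rag2-/- controls, where WT is wild type, IL-10 bl. is IL-10 blockade, and a dot marks FDR under 0.05. The DSS column has 40 dots, IL-10 blockade 39, DNBS 7, and the TCT column goes from 17 to 35 dots when the control changes.

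In DSS, IL-10 blockade, TRUC, TCT and anti-CD40 alike, 12 members rose, beside 3.31% of all genes tested: Irf1, Irf9, Ifit2, Oas2, Bst2, Ifitm3, Parp9, Parp14, Dtx3l, Epsti1, Slfn5 and Samd9l. Of these, Irf9 and Ifitm3 also rose in DNBS, which makes 6 of 6 models. Without DSS mouse 8, described below, Irf1, Ifit2, Dtx3l, Epsti1 and Samd9l were no longer called in DSS and 7 of the 12 were. Ifitm3 and Parp9 kept their calls in these 5 models under every alternative run. The other 28 rose in 1 to 4 models. Among those 28, a promoter was held for 22, of which 10 had the ISRE core and 2 the GAS. Among the 12, a promoter was held for 9, of which 2 had the ISRE core (Bst2 and Slfn5) and 3 the GAS (Irf1, Ifit2 and Bst2). These are counts of letters at 1 start per gene beside counts of models, with no test, and the models share controls.

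Single mice carried much of the rise in both chemical models. DSS mouse 8 was the highest of the 3 DSS mice for all 40 members, over 2-fold above both others for 34 of them, with a median excess of 3.97-fold over the next mouse. DNBS mouse 16 was the highest for all 40 members too, over 2-fold above both others for 31, with a median excess of 3.29-fold. The median over members of the log2 ratio to the wild-type mean was 1.40, 1.10 and 3.10 in DSS mice 5, 6 and 8, and 0.33, 0.19 and 1.92 in DNBS mice 11, 14 and 16. Without mouse 8, 23 of the 40 members still rose in DSS (10.4% of all genes, median log2 fold change 1.37). The 17 no longer called in DSS were Cmpk2, Dhx58, Dtx3l, Eif2ak2, Epsti1, Ifi35, Ifih1, Ifit2, Irf1, Irf7, Mx2, Oas1a, Oas1g, Oasl1, Samd9l, Sp100 and Usp18, so their rise in DSS below depends on mouse 8. The 2 remaining mice lay above every wild-type control for all 40 members. The share of all genes is given only for all 3 mice (25.9% without overlap), and for 2 mice it can only be equal or higher. Without mouse 16, no member passed the threshold in DNBS (edgeR, 2.11% of all genes, median 0.25, with 2 members higher at an unadjusted p under 0.05), while without mouse 11 the count was 16 (7.36% of all genes). The calls in DNBS thus rest on mouse 16.

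Markers of leukocytes and of other cell types moved with the models and with these mice. All 3 pan-leukocyte markers rose in TRUC, DSS, IL-10 blockade, TCT and anti-CD40, and none did in DNBS, while all 4 neutrophil markers rose in all 6 models. Of 6 T-cell markers, 4 rose in TRUC, 5 in DSS, 6 in IL-10 blockade, 6 in TCT and none in DNBS or anti-CD40. In TRUC, labelled Rag2-/-, they stayed low, with a sum of 7.24 to 9.07 CPM, against 96.2 to 176 CPM in TCT. Apart from Cd4, no T-cell marker had more than 19 counts in a TRUC mouse, so these calls are no evidence of T cells there. The pan-leukocyte sum was 103 to 144 CPM in wild type, 34.9 to 44.1 CPM in Rag1-/- and 30.1 to 54.2 CPM in Rag2-/- controls, against 128 to 197 CPM in TRUC, 354 to 533 CPM in TCT, 68.6 to 115 CPM in anti-CD40 and 273 to 535 CPM in IL-10 blockade. The summed level of 4 neutrophil markers was 167, 307 and 1498 CPM in DSS mice 5, 6 and 8, that of 5 monocyte and macrophage markers 382, 411 and 1418 CPM, and that of 3 pan-leukocyte markers 348, 290 and 996 CPM. In DNBS mouse 16 the pan-leukocyte sum was 229 CPM, with 160.3 and 150.4 CPM in mice 11 and 14, and the neutrophil sum, at 56.7 CPM, lay between theirs (20.4 and 89.6 CPM). Smooth muscle markers (4 genes) summed to 7032, 9544 and 3466 CPM in DSS mice 5, 6 and 8, to 5362, 4243 and 2876 CPM in DNBS mice 11, 14 and 16, and to 5032 to 6393 CPM in wild type, so both high mice had the lowest sum of their group. None of the 4 passed the threshold in DSS or DNBS, and 3 fell in IL-10 blockade and 1 in TRUC. All 3 endothelial markers rose in DSS and 1 in DNBS, and 1 fell in IL-10 blockade. Of 6 epithelial markers, 4 rose in IL-10 blockade, 3 rose and 1 fell in TRUC, and 1 rose and 1 fell in DSS. In anti-CD40 2 of them rose and 1 fell, and 1 rose in TCT. Of 5 monocyte and macrophage markers, 5 rose in TRUC and in DSS, 4 in TCT, 2 in IL-10 blockade, 1 in anti-CD40 and none in DNBS. Of 4 B-cell markers, 3 rose in DSS and 1 in TCT. The part of all these markers in the result was not tested. The IL-10 blockade mice were alike, with medians of 2.01, 2.00, 2.14 and 2.02 for mice 1 to 4. TRUC ran from 0.62 (mouse 5) to 1.56 (mouse 3), and mouse 3 held the highest level of 39 members. In TCT mouse 3 was the lowest for 38 members, at a median of 0.30 against the Rag1-/- controls, with 0.99 and 1.37 in mice 1 and 5. Anti-CD40 mice 6, 7 and 8 were at 1.00, 1.26 and 0.75.

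**Figure D2:**
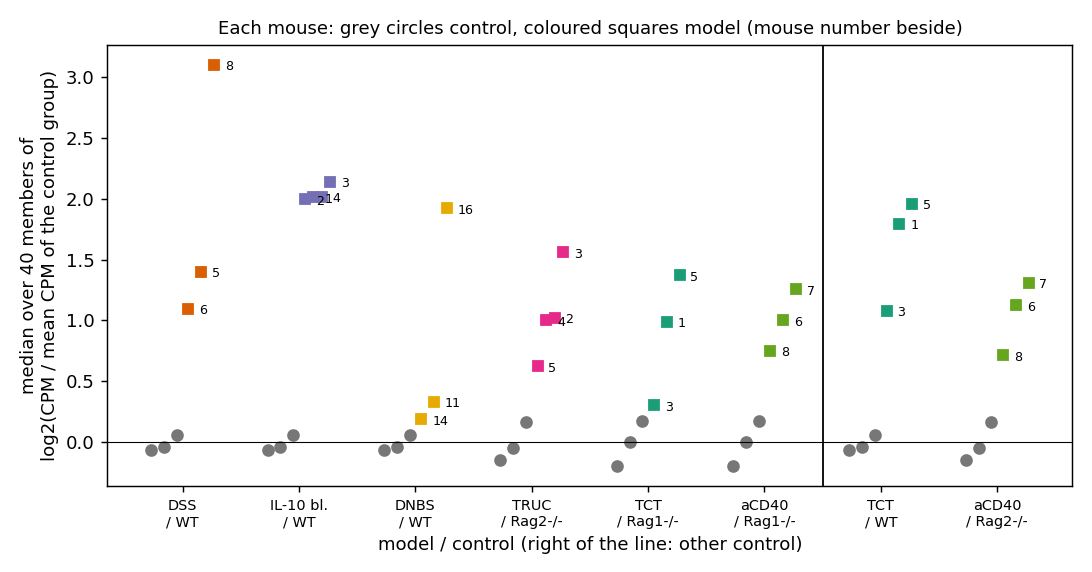
Median over the 40 members of log2(CPM / mean CPM of the control group) for each mouse, with control mice as grey circles, model mice as coloured squares and the mouse number beside; TCT and aCD40 are shown with both controls. DSS mouse 8 (3.10) and DNBS mouse 16 (1.92) stand above the other mice of their groups, and the 4 IL-10 blockade mice lie within 2.00 to 2.14.

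The 3 cytosolic RNA sensors, Ifih1 (MDA5), Ddx58 (RIG-I) and Dhx58 (LGP2), rose in 2 of the 6 models. All 3 rose in DSS (log2 fold changes 0.81 to 1.71, of which only Ddx58 passed without mouse 8, at 0.64 ± 0.23 (FDR = 0.0482)) and in IL-10 blockade (0.67 to 1.97), and none passed the threshold in TRUC, DNBS, TCT or anti-CD40 against their own controls. Ifih1 was already at 77.96 to 90.1 CPM in the wild-type controls and reached 101, 114 and 222 CPM in DSS. In TRUC it measured 117, 133, 118 and 103 CPM beside 117, 117 and 96.2 CPM in the Rag2-/- controls, groups that overlap.

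Of the 4 transcription factors, Irf1, Irf9 and Stat2 rose widely and Irf7 did not. Irf1 answers to interferon-gamma and other inflammatory cytokines. Its level was 142, 139 and 160.4 CPM in the wild-type controls and 506, 594, 518 and 604 CPM in IL-10 blockade. In TRUC it was 411, 534, 372 and 309 CPM, beside 187, 182 and 166 CPM in the Rag2-/- controls. TCT mice had 506, 324 and 494 CPM and anti-CD40 mice 407, 452 and 362 CPM of Irf1, with 145, 154 and 179 CPM in the Rag1-/- controls. Every mouse of these 4 models lay above every mouse of its control. In DSS, by contrast, the Irf1 values were 185, 167 and 690.1 CPM, so mice 5 and 6 lay just above the controls. With its SE, the log2 fold change was 1.92 ± 0.39 (FDR = 0.000318) in IL-10 blockade, 1.19 ± 0.38 (FDR = 0.0136) in TRUC, 1.47 ± 0.40 (FDR = 0.00726) in TCT and 1.35 ± 0.40 (FDR = 0.0186) in anti-CD40. In DSS it was 1.24 ± 0.40 (FDR = 0.0192), and 0.26 ± 0.31 (FDR = 0.593) without mouse 8.

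Irf7 amplifies type I interferon production and stood apart from Irf1 (it was picked here after its values were seen, as were Ifit1 and Isg15 below). It was at 49.1, 48.1 and 57.1 CPM in the wild-type controls and 220.2, 322, 222 and 334 CPM in IL-10 blockade, a log2 fold change of 2.42 ± 0.47 (FDR = 0.000196). In the Rag1-/- controls it was already at 166, 91.6 and 139 CPM, and TCT (177, 59.5 and 158 CPM) and anti-CD40 (164, 176 and 133 CPM) overlapped with that range. TRUC mice had 130.4, 196, 105 and 82.6 CPM beside 129.5, 116 and 106 CPM in the Rag2-/- controls, which gives a log2 fold change of 0.13 ± 0.43 (FDR = 0.831).

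Irf9, the DNA-binding partner of STAT2, passed the threshold in all 6 models. The smallest log2 fold change was 0.64 ± 0.23 (FDR = 0.0251) in TRUC, from 60.6, 50.97 and 46.2 CPM to 87.1, 94.04, 82.8 and 64.9 CPM. The largest were 1.68 ± 0.25 (FDR = 3.16e-05) in DSS and 1.68 ± 0.24 (FDR = 6.77e-06) in IL-10 blockade. In DSS it stayed past the threshold without mouse 8, at 1.23 ± 0.21 (FDR = 0.000275), and in DNBS it went from 0.87 ± 0.25 (FDR = 0.0368) to 0.49 ± 0.23 (FDR = 0.304) without mouse 16. Stat2 rose in 4 models, with log2 fold changes of 1.95 in DSS, 2.00 in IL-10 blockade, 1.34 in TRUC and 1.52 in anti-CD40. Its levels were 99.99, 156, 95.7 and 87.5 CPM in TRUC beside 48.7, 37.7 and 43.7 CPM in the Rag2-/- controls.

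The Ifit genes encode proteins that bind foreign RNA and block its translation, and the 4 members did not move alike. Ifit2 was even across the controls, at 13.8, 11.6 and 13.3 CPM in wild type, 15.2, 18.05 and 14.1 CPM in Rag1-/- and 14.6, 9.87 and 12.8 CPM in Rag2-/-. It was 116, 278, 155 and 72.5 CPM in TRUC, 212, 51.9 and 223 CPM in TCT and 186, 229 and 74.1 CPM in anti-CD40. No mouse of these 3 models overlapped with its controls, and Ifit2 was the largest rise among the members in all 3 models. The log2 fold change was 3.64 ± 0.89 (FDR = 0.00194) in TRUC, 3.36 ± 0.89 (FDR = 0.00584) in TCT and 3.37 ± 0.89 (FDR = 0.00965) in anti-CD40. IL-10 blockade mice reached 199.6, 235, 325 and 409 CPM, a log2 fold change of 4.50 ± 0.92 (FDR = 0.000319). The DSS mice ranged widely, at 82.6, 24.9 and 419.6 CPM, and without mouse 8 the log2 fold change of 3.77 ± 0.91 (FDR = 0.00272) became 2.06 ± 0.80 (FDR = 0.0695).

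Ifit1 was at 4.50, 3.06 and 4.59 CPM in the wild-type controls, but at 19.3, 15.5 and 16.3 CPM in the Rag1-/- and 20.5, 8.72 and 14.9 CPM in the Rag2-/- controls. TRUC mice had 18.7, 37.5, 20.5 and 10.4 CPM and anti-CD40 mice 22.6, 29.2 and 12.8 CPM, which overlap with those controls. The log2 fold change was 0.57 ± 0.74 (FDR = 0.557) in TRUC and 0.33 ± 0.78 (FDR = 0.802) in anti-CD40. In DSS (mice at 43.5, 23.3 and 297 CPM) it was 4.91 ± 0.91 (FDR = 0.000278), and 3.05 ± 0.75 (FDR = 0.00557) without mouse 8. In IL-10 blockade (mice at 52.9, 78.2, 79.4 and 165 CPM) it was 4.54 ± 0.88 (FDR = 0.000191). The change of Ifit1 differed between the 6 models (edgeR F test of equal changes, FDR = 0.0101), and for Ifit2 that test gave FDR = 0.426.

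The ratio of Ifit2 to Ifit1 within a mouse does not depend on scaling between mice. On the log2 scale it was -0.11 ± 0.29 (SD, n = 3) in the Rag1-/- controls and -0.18 ± 0.33 (n = 3) in the Rag2-/- controls, against 2.85 ± 0.27 (n = 3) in anti-CD40 and 2.81 ± 0.13 (n = 4) in TRUC. TCT mice were at 1.74 ± 0.32 (n = 3), IL-10 blockade at 1.71 ± 0.33 (n = 4) and the wild-type controls at 1.69 ± 0.20 (n = 3). DSS was at 0.51 ± 0.42 (n = 3) and DNBS at 0.91 ± 0.33 (n = 3), so the ratio was lower in DSS and DNBS mice than in every wild-type control and higher in TRUC and anti-CD40 mice than in every other mouse. The ratio of Irf1 to Irf7 had its lowest group means in the Rag1-/- (0.31 ± 0.47) and Rag2-/- (0.61 ± 0.07) controls, and was 1.71 ± 0.20 in TRUC and 1.87 ± 0.50 in TCT. Both pairs were chosen after their values were seen, and the ratios are given with no test.

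**Figure D3:**
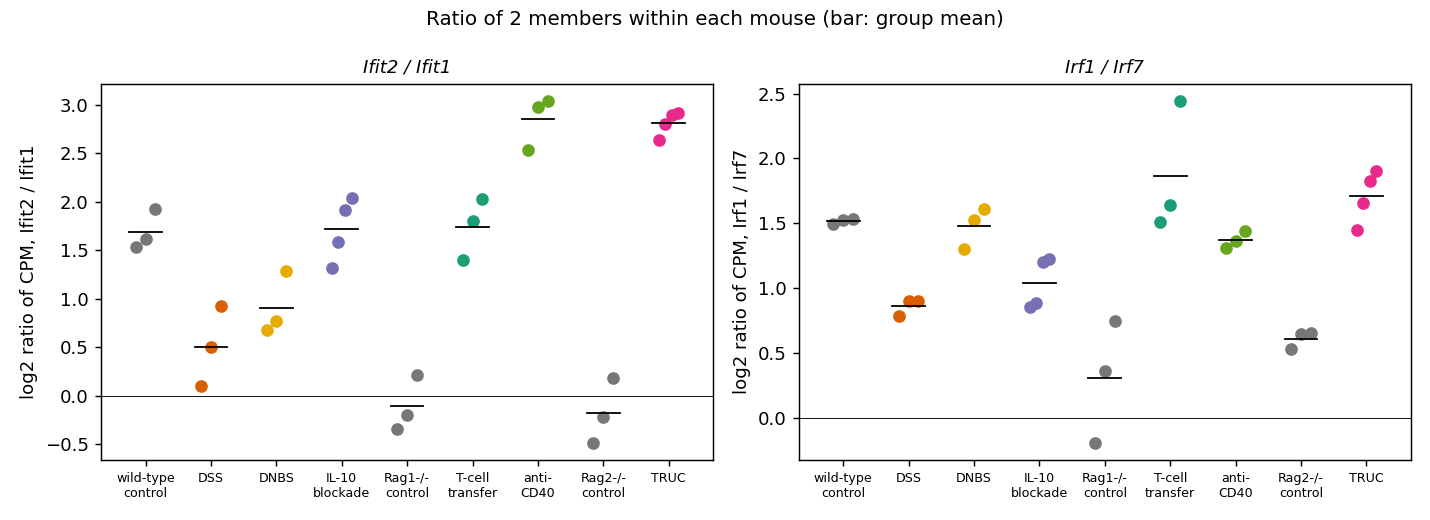
Log2 ratio of Ifit2 to Ifit1 (left) and of Irf1 to Irf7 (right) within each mouse, by group, with the group mean as a bar and control groups in grey. The Ifit2 to Ifit1 ratio goes from a mean of -0.18 in the Rag2-/- controls to 2.81 in TRUC, and from 1.69 in the wild-type controls to 0.51 in DSS.

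Ifit3 and Ifit3b share 51.2% and 45.0% of their 50-base windows with other genes, nearly all with each other, so reads may be split between them and their counts are uncertain. In TCT, Ifit3 went from 4.86, 3.24 and 2.58 CPM in the Rag1-/- controls to 22.9, 14.2 and 56.9 CPM, a log2 fold change of 3.13 ± 0.74 (FDR = 0.00228). Both genes rose in DSS, IL-10 blockade and TCT and in no other model.

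The oligoadenylate synthetases sense double-stranded RNA and switch on RNase L. Oas3 had the lowest level per length of all 40 members in the wild-type controls, 0.133 ± 0.0287 CPM per kb of exon (SD, n = 3), and the largest rise in DSS, DNBS and IL-10 blockade. Its levels were 1.14, 0.932 and 0.738 CPM in the wild-type controls, 27.8, 12.6 and 165 CPM in DSS and 2.75, 3.18 and 53.1 CPM in DNBS. IL-10 blockade mice had 65.3, 86.8, 80.2 and 54.8 CPM. Every mouse of these 3 models lay above every wild-type control. The log2 fold change was 6.17 ± 1.11 (FDR = 0.000217) in DSS, 6.24 ± 1.10 (FDR = 7.08e-05) in IL-10 blockade and 4.35 ± 1.10 (FDR = 0.0212) in DNBS. It was 4.42 ± 0.99 (FDR = 0.00298) in DSS without mouse 8 and 1.64 ± 1.01 (FDR = 0.456) in DNBS without mouse 16.

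Oas3 was also high in both lymphocyte-deficient control groups, at 20.4, 5.23 and 21.3 CPM in Rag1-/- and 15.8, 8.49 and 12.2 CPM in Rag2-/- mice. Above these, TRUC mice had 54.9, 74.8, 38.9 and 26.3 CPM, TCT mice 59.1, 22.7 and 80.2 CPM and anti-CD40 mice 70.3, 87.3 and 56.5 CPM. The groups did not overlap, but the log2 fold change was 2.01 ± 0.82 (FDR = 0.0479) in TRUC, 1.79 ± 0.84 (FDR = 0.111) in TCT and 2.19 ± 0.85 (FDR = 0.0653) in anti-CD40. Oas2 rose in 5 models, with log2 fold changes from 1.83 ± 0.67 (FDR = 0.0394) in TCT to 4.42 ± 0.76 (FDR = 0.000132) in DSS. Oas2 was at 2.29, 1.53 and 1.23 CPM in wild type, 8.51, 2.58 and 6.71 CPM in Rag1-/- and 7.97, 4.52 and 6.19 CPM in Rag2-/- controls. Anti-CD40 mice had 31.1, 38.5 and 26.8 CPM, TRUC mice 23.7, 47.2, 22.6 and 12.5 CPM and DSS mice 18.8, 15.5 and 75.01 CPM.

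Oas1a and Oas1g, near copies that share 57.6% and 45.7% of their windows, had the smallest p of the difference between models (FDR = 0.000302 for Oas1g and 0.00251 for Oas1a). Both rose in IL-10 blockade and, with mouse 8, in DSS, and in no other model. Without mouse 8 the log2 fold change in DSS was 0.83 ± 0.30 (FDR = 0.0542) for Oas1g and 0.68 ± 0.27 (FDR = 0.0771) for Oas1a. Oas1g was at 32.3, 27.7 and 27.6 CPM in wild type and 87.2, 118, 103 and 75.7 CPM in IL-10 blockade, a log2 fold change of 1.72 ± 0.27 (FDR = 2.28e-05). In TRUC it was at 64.2, 75.8, 65.1 and 65.8 CPM beside 64.7, 55.6 and 51.1 CPM in the Rag2-/- controls, which gives a log2 fold change of 0.25 ± 0.26 (FDR = 0.459). For Oas1a the levels were 52.1, 43.96 and 50.8 CPM in wild type, 153, 191, 176 and 139 CPM in IL-10 blockade and 81.5, 75.2 and 147 CPM in DSS.

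The OAS-like genes Oasl1 and Oasl2 differed from each other. Oasl2 rose in DSS (4.15 ± 0.75), IL-10 blockade (4.09 ± 0.73), DNBS (2.74 ± 0.71) and TCT (1.80 ± 0.67), all as log2 fold changes. It measured 16.5, 12.99 and 11.6 CPM in wild type, 25.2, 33.3 and 217 CPM in DNBS and 189, 108 and 290.3 CPM in TCT. Oasl1 rose in TRUC as well as in DSS and IL-10 blockade. Its log2 fold change was 1.47 ± 0.49 (FDR = 0.0164) in TRUC, where Oasl2 had 0.87 ± 0.63 (FDR = 0.265). Oasl1 was 222, 319, 224 and 169.8 CPM in TRUC and 87.6, 89.3 and 76.2 CPM in the Rag2-/- controls, which do not overlap.

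Mx1 and Mx2 belong to a family of GTPases that can trap viral nucleocapsids, and Mx2 is annotated as a polymorphic pseudogene in GENCODE M21. Whether Mx1 and Mx2 gave working proteins in these mice was not tested. Both rose in DSS (log2 fold changes 2.87 to 3.17) and in IL-10 blockade (1.89 to 2.26), and Mx1 also in TRUC, by 1.52 ± 0.54 (FDR = 0.0254). Mx2 stayed at 0.733 to 1.30 CPM in wild type and 1.53 to 4.05 CPM in the Rag controls.

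Rsad2, which encodes viperin, a virus-restricting enzyme, passed the threshold in DSS and in none of the other 5 models. It was at 4.27, 5.53 and 5.74 CPM in wild type and 21.5, 12.99 and 249 CPM in DSS, a log2 fold change of 4.18 ± 0.86 (FDR = 0.0007), and 1.74 ± 0.62 (FDR = 0.0479) without mouse 8. IL-10 blockade mice had 13.2, 17.4, 27.1 and 6.80 CPM, above every wild-type control, with a log2 fold change of 1.64 ± 0.78 (FDR = 0.0807). Rag1-/- controls (17.4, 23.9 and 12.8 CPM), TCT (26.7, 6.84 and 9.92 CPM) and anti-CD40 (15.9, 23.6 and 11.3 CPM) overlapped. Rsad2 changed unequally across models (FDR = 0.00388). Its neighbour on chromosome 12, Cmpk2, a mitochondrial nucleotide kinase, rose in DSS (1.89) and IL-10 blockade (1.99), and Eif2ak2, the RNA-activated kinase PKR, rose in these and in TRUC, by log2 fold changes of 0.51 to 0.86.

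Both membrane effectors rose in 5 or more models. Ifitm3, which hinders the fusion of viruses with endosomes, had the highest level per length in the wild-type controls (149 ± 19.65 CPM per kb, SD, n = 3) and rose in all 6 models. Its levels were 103, 113 and 86.7 CPM in wild type, 112, 114 and 95.4 CPM in Rag1-/- and 93.5, 91.3 and 99.1 CPM in Rag2-/- controls. Against these stood 271, 298, 296 and 235 CPM in TRUC, 292, 313 and 262 CPM in anti-CD40 and 209.6, 233 and 403 CPM in TCT. DSS mice had 307, 346 and 860.1 CPM, DNBS mice 158, 188 and 325 CPM and IL-10 blockade mice 302, 263, 270.1 and 229 CPM. No model overlapped with its control. The log2 fold change was 2.32 ± 0.30 (FDR = 8.84e-06) in DSS and between 1.15 and 1.54 in the other 5 models, and in DSS it was 1.69 ± 0.24 (FDR = 2.85e-05) without mouse 8.

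Bst2 (tetherin) holds budding viruses at the cell surface. It was at 13.8 to 23.3 CPM over all 9 control mice, 118, 111, 121 and 136 CPM in IL-10 blockade, 72.5, 88.1 and 67.4 CPM in anti-CD40 and 48.9, 67.3, 66.5 and 50.7 CPM in TRUC. TCT mice had 55.9, 36.6 and 93.5 CPM and DSS mice 54.6, 39.4 and 156 CPM. All these mice lay above the 9 controls, with log2 fold changes from 1.52 ± 0.43 in TCT to 2.46 ± 0.42 in IL-10 blockade, and 1.09 ± 0.37 (FDR = 0.041) in DSS without mouse 8.

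Isg15 encodes a ubiquitin-like protein that is joined to other proteins (by Herc6 in mice) and taken off by Usp18. Isg15 measured 2.82, 2.40 and 2.21 CPM in the wild-type controls, 35.1, 20.9 and 232 CPM in DSS and 59.02, 95, 88.8 and 59.4 CPM in IL-10 blockade. The log2 fold change was 5.27 ± 0.91 (FDR = 0.000144) in DSS, 3.49 ± 0.75 (FDR = 0.00219) without mouse 8, and 4.92 ± 0.89 (FDR = 8.87e-05) in IL-10 blockade. The Rag1-/- (24.3, 13.9 and 18.1 CPM) and Rag2-/- (17.6, 11.9 and 11.9 CPM) controls lay above every wild-type control. TRUC mice had 40.3, 72.2, 42.2 and 23.3 CPM, above their controls, with a log2 fold change of 1.69 ± 0.73 (FDR = 0.0604). Usp18, also a brake on the type I interferon receptor, rose in TRUC, DSS, IL-10 blockade and TCT. It measured 2.51, 2.66 and 1.89 CPM in wild type and 30.02, 48.8, 42.5 and 29.7 CPM in IL-10 blockade, a log2 fold change of 3.99 ± 0.85 (FDR = 0.000465). TRUC mice had 19.02, 36.03, 16.9 and 9.28 CPM beside 4.43, 2.83 and 4.68 CPM in the Rag2-/- controls, which gives a log2 fold change of 2.35 ± 0.79 (FDR = 0.0176). Of the 6 models, Herc6 rose in DSS and IL-10 blockade.

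**Figure D4:**
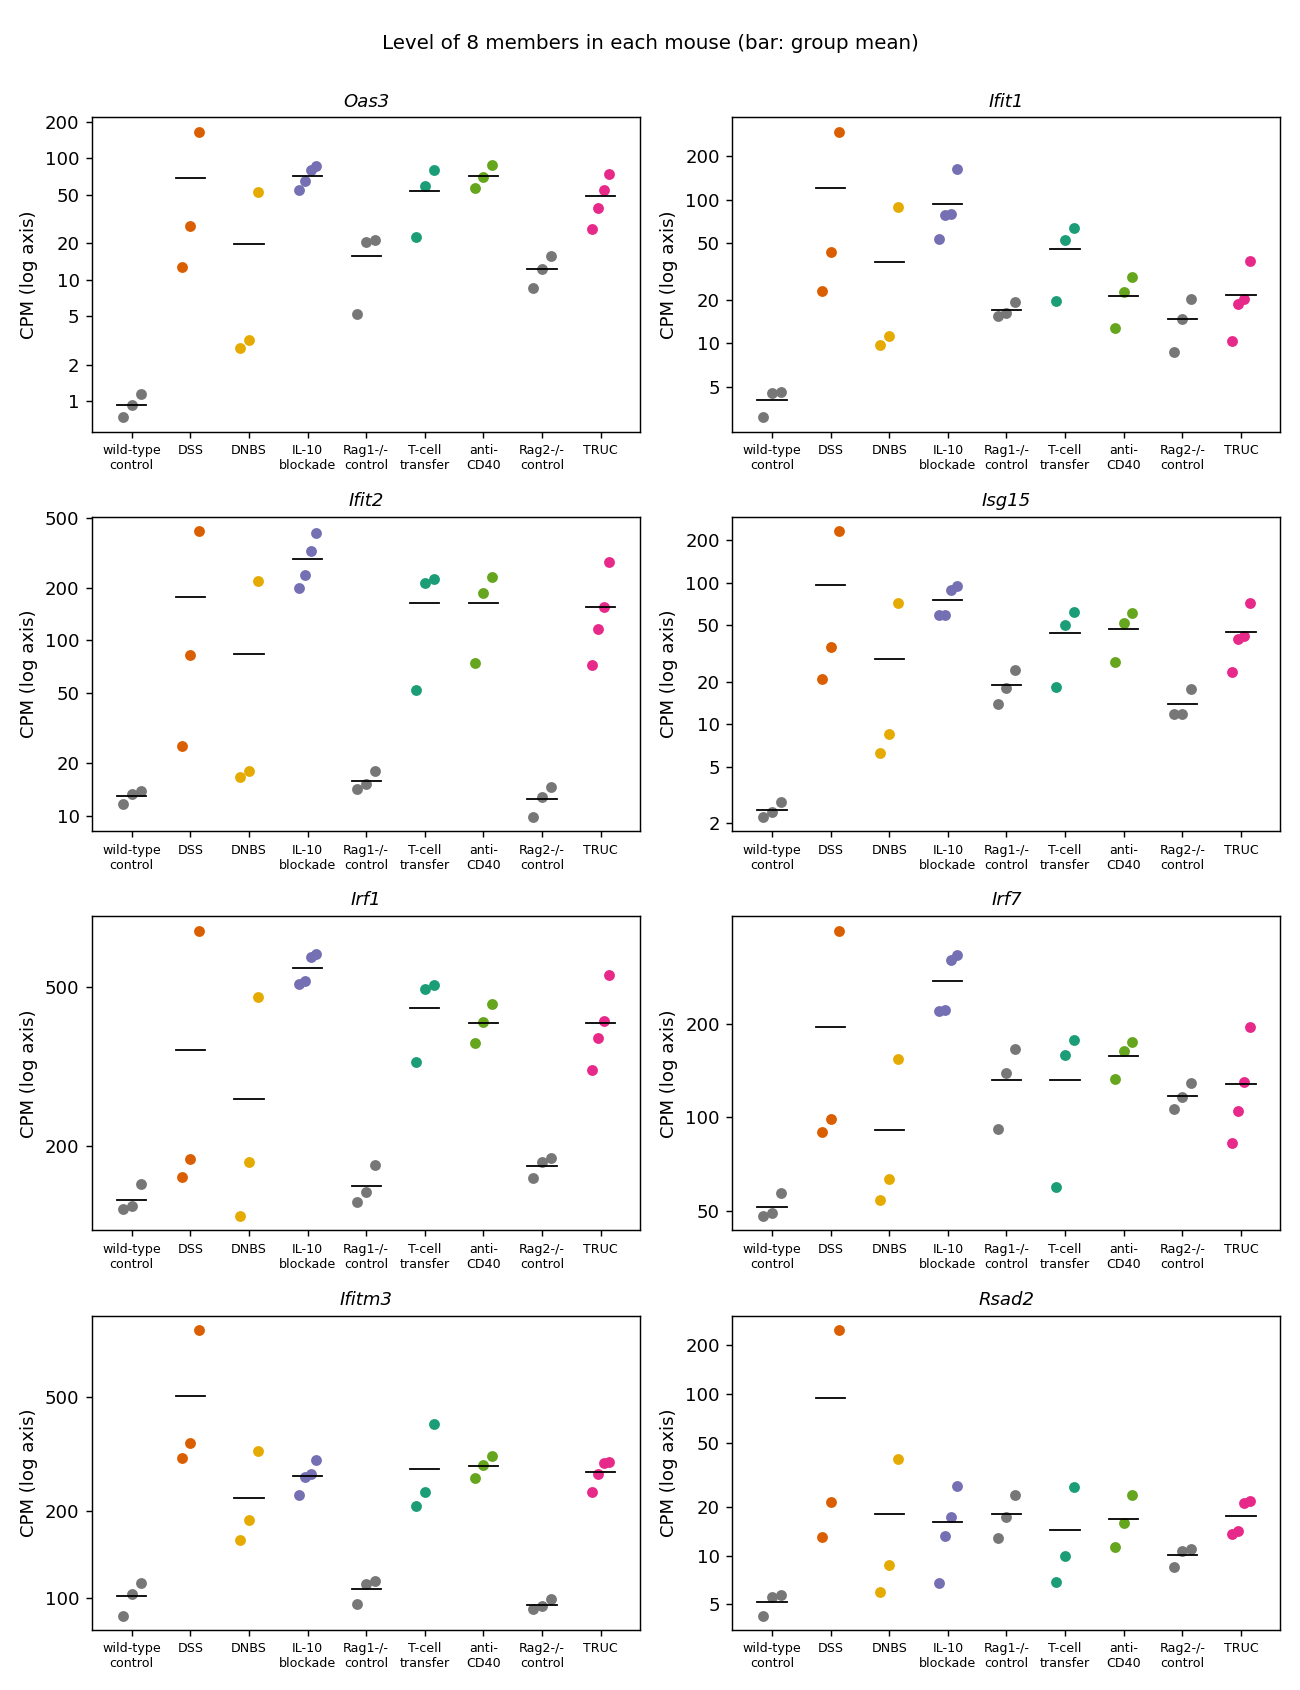
Level of 8 members in each of the 29 mice, in CPM on a log axis, with group means as bars and control groups in grey. Group means of Oas3, Ifit1, Isg15 and Irf7 are higher in the Rag1-/- and Rag2-/- controls than in the wild-type controls (past the threshold for Oas3 in both and for Isg15 in Rag1-/- mice, and for neither Ifit1 nor Irf7), whereas Ifit2 and Ifitm3 are at like levels in the 3 control groups.

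Parp9 and Dtx3l, whose products form an enzyme complex that modifies histones and strengthens interferon signalling, and Parp14 each rose in 5 models, and in DNBS none of the 3 did. Parp9 and Dtx3l overlap by 682 bases on opposite strands. The strand setting of the counting is not given in the sources used here, so reads from that stretch cannot be told apart. Parp14 was at 67.5, 62.5 and 57.5 CPM in wild type, 93.6, 66.6 and 99.4 CPM in Rag1-/- and 116, 105 and 74.3 CPM in Rag2-/- controls. It reached 221, 217, 206 and 242 CPM in IL-10 blockade, 208, 326, 189.7 and 133 CPM in TRUC, 234, 153 and 270.4 CPM in TCT and 259.6, 272 and 216 CPM in anti-CD40. These mice lay above all 9 controls. The Parp14 log2 fold changes ran from 1.12 ± 0.42 (FDR = 0.0317) in TRUC to 2.10 ± 0.45 (FDR = 0.00104) in DSS, where the mice had 133, 130.3 and 541 CPM. Parp9 was at 62.5 to 70.3 CPM in the wild-type controls (median 63.7) and 260.2, 258, 215 and 308 CPM in IL-10 blockade, a log2 fold change of 1.99 ± 0.35 (FDR = 7.9e-05). Dtx3l changed by 1.07 to 1.63 on the log2 scale in those 5 models.

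Of the other 10 members, Slfn5, Samd9l and Epsti1 rose in 5 models. Slfn5, of the Schlafen family, had its largest rise outside DSS in TRUC, with 76.1, 142, 62.2 and 46.01 CPM beside 11.95, 7.88 and 17.3 CPM in the Rag2-/- controls, which gives a log2 fold change of 2.72 ± 0.57 (FDR = 0.000533). Samd9l, which restricts viruses by slowing protein synthesis, was abundant in all controls (75.6 to 111 CPM) and reached 279, 304, 269 and 222 CPM in TRUC, a log2 fold change of 1.33 ± 0.20 (FDR = 1.77e-05). In DNBS its values were 92.02, 84.5 and 151 CPM, a log2 fold change of 0.10 ± 0.20 (FDR = 0.795). Samd9l changed unequally across models (FDR = 0.00467). Epsti1 changed less, by 0.64 in DSS to 1.23 in IL-10 blockade on the log2 scale, from 38.2 to 49.5 CPM in the controls.

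Ifi44 was near the floor in wild type, 0.762, 1.86 and 0.738 CPM, and at 24.9, 30.2, 37.9 and 33.6 CPM in IL-10 blockade, a log2 fold change of 4.77 ± 0.87 (FDR = 9.78e-05). It rose in anti-CD40 (mice at 36.3, 41.8 and 21.9 CPM) by 2.82 ± 0.77 (FDR = 0.0112) on the log2 scale, from 6.08, 3.17 and 4.91 CPM in the Rag1-/- controls. TRUC mice had 32.1, 54.4, 22.8 and 17.02 CPM of Ifi44. Trim30a rose in DSS, IL-10 blockade, TRUC and TCT by 1.62 to 3.06 on the log2 scale, from 9.14 to 14.97 CPM in the 9 controls. Ifi27l2a was at 21.1, 18.2 and 20.3 CPM in wild type and 55.7, 62.9 and 168 CPM in DSS, a log2 fold change of 2.26 ± 0.39 (FDR = 0.000122), and it also rose in IL-10 blockade and TRUC. In TCT, at 22.2, 19.2 and 46.2 CPM, it overlapped with the Rag1-/- controls (37.4, 32.3 and 26.5 CPM). The remaining Ifi35, Rtp4, Sp100 and Xaf1 rose in DSS and IL-10 blockade. Of these 4, Ifi35 and Xaf1 also rose in TRUC and Rtp4 in DNBS. Xaf1, which promotes apoptosis, changed by 2.19 ± 0.49 (FDR = 0.000976) in TRUC on the log2 scale, and Rtp4 by 1.88 ± 0.54 (FDR = 0.0392) in DNBS. Overlapping or similar annotated genes share 10.4% to 12.5% of the windows of Herc6, Rtp4, Slfn5 and Ifi35, whose counts may therefore be partly uncertain.

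The size of the change differed between the 6 models for 23 of the 40 members (edgeR F test of equal changes, FDR 0.05), beside 60.5% of all genes. The members thus passed this test no more often than genes did in general. Against the mean of the other 5 models, DSS had a larger change for 19 members (16.1% of all genes) and IL-10 blockade for 15 (16.2% of all genes). The 15 were Isg15, Ifit1, Irf7, Irf9, Oas1a, Oas1g, Oas3, Oasl1, Oasl2, Rtp4, Ifi35, Ifi44, Ifi27l2a, Dhx58 and Epsti1. Of these, Irf9, Oas3, Rtp4, Isg15, Oas1a, Oas1g and Oasl1 were also higher in Rag1-/- or Rag2-/- than in wild-type controls, as given below. DSS, DNBS and IL-10 blockade are set against the wild-type controls, so a larger change there need not be a higher level than in other models. Without DSS mouse 8 no member had a larger change in DSS (0 against 19, with 1 higher at an unadjusted p under 0.05 and 10% of all genes higher in that fit) and 27 had one in IL-10 blockade (17.7% of all genes), where 24 did without DNBS mouse 16 (16.8%). Samd9l had a smaller change in DNBS (3.09% of all genes lower), and without DNBS mouse 16 the count was 16 (5.23% of all genes) and without mouse 11 or 14 it was 0. Ifi27l2a had a smaller change in TCT (3.7% of all genes lower), a call of 1 member that became 0 or 2 when 1 of several mice was left out. The test of equal changes gave 39 members without DNBS mouse 16 (62.5% of all genes), and also 39 without both DNBS mouse 16 and DSS mouse 8 (60.1% of all genes). With TCT set against wild-type and anti-CD40 against Rag2-/- mice it gave 21 (58.9% of all genes). No member passed this edgeR test in TRUC (1 higher and 4 lower at an unadjusted p under 0.05) or anti-CD40 (0 higher and 5 lower), where 1.82% and 0.859% of all genes were higher and 2.5% and 1.15% lower. The wild-type and Rag1-/- controls each serve several models, so these contrasts are not independent of each other.

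Among untreated mice, levels of some members depended on the control group. Against the wild-type controls, 6 members were higher in the Rag1-/- controls (Irf9, Oas3, Rtp4, Isg15, Oas1a and Oas1g, with 4.77% of all genes) and 5 in the Rag2-/- controls (Oas3, Rtp4, Oasl1, Oas1a and Oas1g, with 3.25% of all genes), and none was lower (6.18% of all genes were in Rag1-/- and 4.86% in Rag2-/- mice). The largest of these was Oas3, with log2 differences of 4.04 ± 1.10 (FDR = 0.017) in Rag1-/- and 3.67 ± 1.11 (FDR = 0.0387) in Rag2-/- mice. Rtp4 differed by 2.06 ± 0.54 (FDR = 0.013) and 1.87 ± 0.54 (FDR = 0.0304), and measured 9.07, 8.86 and 8.45 CPM in wild type, 50.7, 25.05 and 34.6 CPM in Rag1-/- and 39.6, 27.8 and 29.2 CPM in Rag2-/- mice. Every mouse of the Rag2-/- group lay above every wild-type mouse for 28 members (18.9% of all genes) and below for 1, and in the Rag1-/- group 25 lay above (17.9% of all genes) and 1 below. These calls rest on few mice: leaving out any 1 mouse of either group left 0 or 1 call in Rag2-/- mice. In Rag1-/- mice it left 0 (without wild-type control 1 or 2) or 1 (without wild-type control 4 or Rag1-/- control 2 or 4), and 7 without Rag1-/- control 3. Genotype and the H2-Ea type differ together between the wild-type and both Rag control groups and cannot be told apart, and for the Rag1-/- controls the labelled strain differs too.

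The choice of control set what was called in TCT. Isg15 changed by 1.22 ± 0.75 (FDR = 0.229) against the Rag1-/- controls and by 4.14 ± 0.89 (FDR = 0.00131) against the wild-type controls, from mice at 50.6, 18.3 and 62.5 CPM. Oas3 changed by 1.79 and 5.83, Ifit1 by 1.41 and 3.48, and Irf7 by -0.01 and 1.36 on the same scale. Ifit2 (3.36 and 3.65), Ifitm3 (1.39 and 1.48), Bst2 (1.52 and 1.49) and Slfn5 (1.83 and 1.86) changed by like amounts against either. With the wild-type controls the members not past the threshold were Ifih1, Mx2, Rsad2, Ifi27l2a and Sp100. The 2 control groups used for anti-CD40 are both labelled Rag-deficient and both transcribe H2-Ea. Those used for TCT differ in both respects, so the changes of control are not alike and the models cannot be ranked by them. In anti-CD40, 2 members passed the threshold against the Rag2-/- controls and not against the Rag1-/- controls. These were Oas3, at 2.55 ± 0.86 (FDR = 0.0329), and Ifi35, at 0.84 ± 0.31 (FDR = 0.0485). T-cell markers (6 genes) summed to 96.2 to 176 CPM in TCT, 3.49 to 4.94 CPM in the Rag1-/- and 10.8 to 17.6 CPM in the wild-type controls, and their part in the result was not tested.

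**Figure D5:**
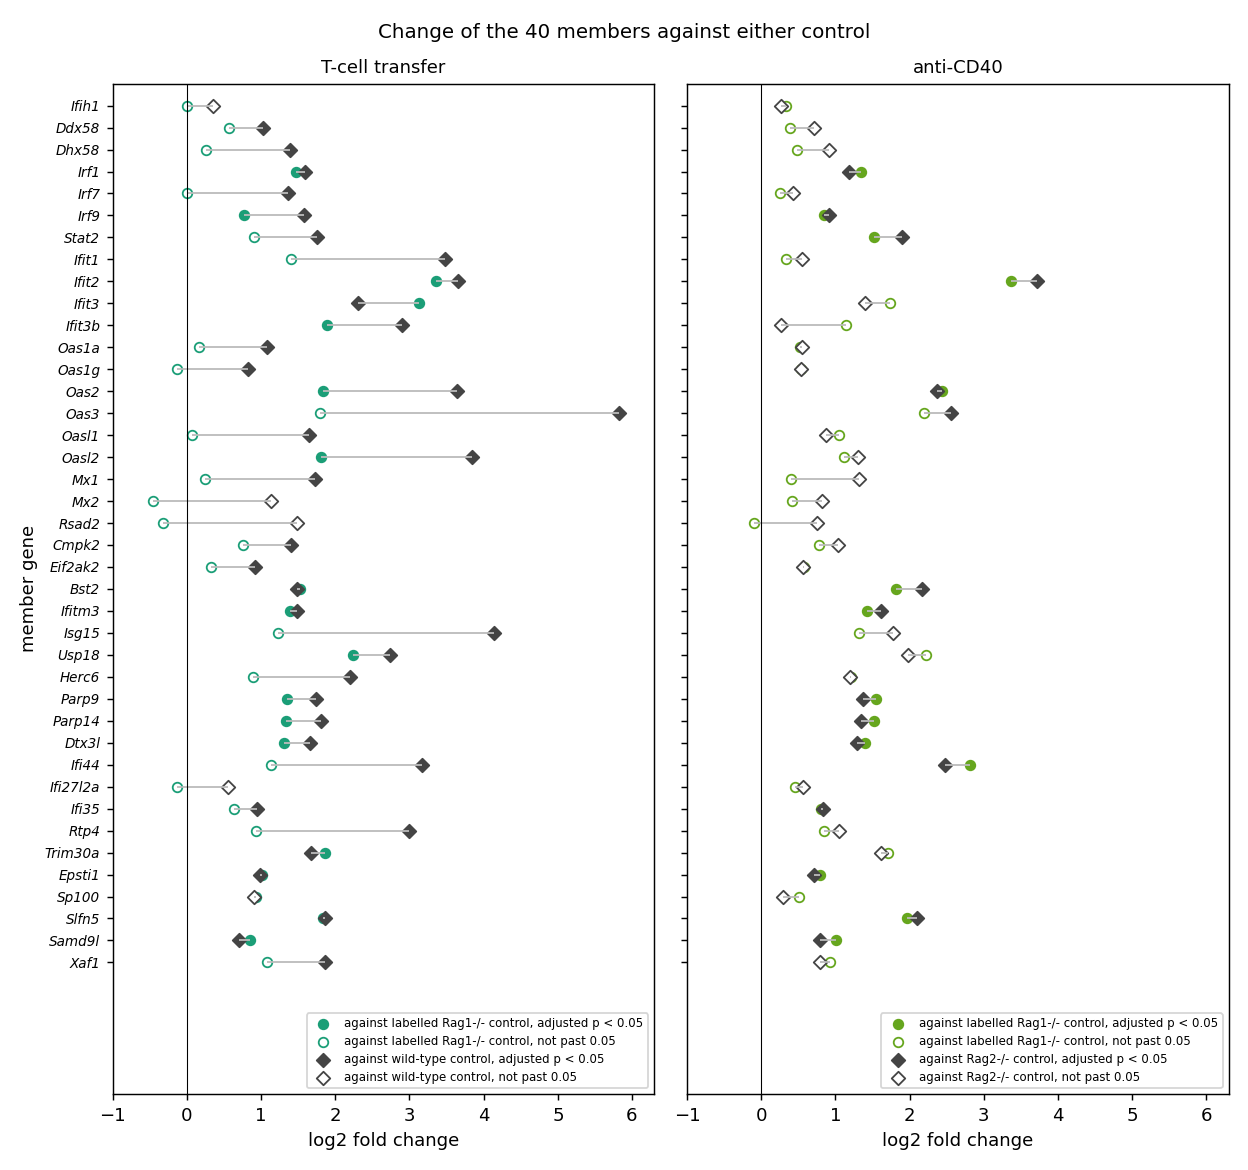
Log2 fold change of the 40 members in TCT (left) and anti-CD40 (right) against the labelled Rag1-/- controls (circles) and against a second control group (diamonds, wild type for TCT and Rag2-/- for anti-CD40), filled where FDR is under 0.05. For TCT, Oas3 goes from 1.79 to 5.83 and Isg15 from 1.22 to 4.14, while Ifit2, Ifitm3 and Bst2 hardly move. Both comparisons of a model share its mice.

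The other genes of the pathway were described from a list of 36, of which 25 passed the filter. Of those 25, 17 rose in TRUC, 17 in DSS, 14 in IL-10 blockade, 14 in TCT, 13 in anti-CD40 and 5 in DNBS, and 2 fell in DSS, Ifngr2 and Mavs. Without DSS mouse 8 the count in DSS was 9 higher and 1 lower, and without DNBS mouse 16 it was 0 in DNBS (edgeR, with 2 higher at an unadjusted p under 0.05). Among the ligands, the 9 type I genes in the list had 22 counts in all 29 mice together, 5 of them none, with 8 of the 9 counts of Ifnb1 in DSS mouse 8, and the type III genes Ifnl2 and Ifnl3 had 1 count between them. At this depth a gene without counts may still have had as many as 3, which is 0.179 to 0.314 CPM depending on the mouse. Ifng, which encodes interferon-gamma, had at most 1 count in any control mouse. It was 1.47, 3.11, 2.66 and 0.896 CPM in TRUC, 3.93, 4.36 and 6.95 CPM in TCT, 3.20, 2.81, 2.92 and 7.01 CPM in IL-10 blockade and 0.441, 0.137 and 47.5 CPM in DSS. DNBS mice 11, 14 and 16 had 0.119, 0 and 3.16 CPM, and anti-CD40 mice 0.752, 1.63 and 0.359 CPM. With the controls set at a floor of 3 counts per library, mean Ifng was 7.66-fold that floor in TRUC, 19.7-fold in TCT, 16.2-fold in IL-10 blockade, 4.44-fold in DNBS and 3.54-fold in anti-CD40. In DSS it was 65.1-fold. These ratios leave out the spread between mice, and the floor is that of a gene without counts, while some control mice had 1. Both chemical models rest on 1 mouse here, since without DSS mouse 8 the DSS mean was 1.17 times that floor, and without DNBS mouse 16 the DNBS mean lay below it. Ifng passed the threshold in TRUC, TCT, IL-10 blockade and DSS, and not in DSS without mouse 8 (FDR = 0.273).

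Of the receptors, Ifnar2 rose in 4 models and Ifngr2 in IL-10 blockade only, while it fell in DSS. Irf8, a transcription factor of myeloid cells, rose in 5 models (all but DNBS), and Irf5 and Tlr9 in 4. Socs1, which damps JAK signalling, the interferon-inducible chemokines Cxcl9 and Cxcl10, the nucleic acid sensor Zbp1 and Tmem173 (STING) rose in all 6. In DNBS these are the 5 calls that were lost without mouse 16: Socs1 was at 5.14, 4.81 and 64.99 CPM and Zbp1 at 19.3, 20.6 and 141 CPM in mice 11, 14 and 16. Cxcl9, a target typical of interferon-gamma, went from 0.620, 0.459 and 0.604 CPM in the Rag2-/- controls to 63.6, 109, 81.6 and 38.4 CPM in TRUC and from 0.838, 0.666 and 0.410 CPM in wild type to 3.34, 1.94 and 85.6 CPM in DNBS. Its log2 fold changes were 7.01 ± 1.42 (FDR = 0.000403) and 5.52 ± 1.39 (FDR = 0.0212), the latter 2.05 ± 1.33 (FDR = 0.486) without mouse 16. Of 5 markers of plasmacytoid dendritic cells, a main source of type I interferon, 2 rose and 1 fell in TRUC, 1 rose and 1 fell in IL-10 blockade, 1 rose and 2 fell in TCT, 2 fell in anti-CD40 and 1 fell in DSS and in DNBS each. The list was Siglech, Ccr9, Klk1, Cox6a2 and Tcf4. Klk1 was at 616 to 1034 CPM in the control mice, where Siglech was at 1.91 to 4.61 CPM. Which cells of the colon made these transcripts was not tested, so the counts are no measure of plasmacytoid dendritic cells.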

How the data were processed

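Colon poly(A) RNA of 29 mice was sequenced in 29 libraries. The authors deposited 1 table of counts, that is unnormalized whole reads for each gene (Ensembl identifier) in each mouse. The submitters' processing notes name Trimmomatic, HISAT2, HTSeq and GRCm38, with no roles or versions. The annotation release and strand setting are not given in the sources used here. No read was counted for the 92 spike-ins, which were dropped. Of 54532 identifiers, 54409 had a symbol and 54495 a position in the GENCODE M21 annotation of GRCm38.

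The tests used edgeR 4.0.16 under R 4.3.3. The 18616 genes that averaged 3 counts or more across the mice were scaled by TMM and fitted in 1 quasi-likelihood model of 9 groups with no covariate. FDR is the Benjamini-Hochberg adjusted p over all genes tested, with a threshold of 0.05. The SE was obtained as the absolute log2 fold change over the root of the F statistic. Per-mouse levels are CPM on the TMM scale, and exon lengths come from GENCODE M21. No column repeated another, and mice within groups (33 pairs) differed by a chi-square of 3.46 to 88.1 per degree of freedom, where counting noise alone gives about 1. Intervals and floors cover counting error only. Shared reads were judged from 50-base windows of exons found in another gene. Replicate numbers are shared between some groups but are not stated to pair mice.

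All 40 members were described by role. A member was described in full if it passed the threshold in at least 4 models, had the largest change in a model, the highest or lowest level per length in the controls, or 1 of the 5 lowest p of the difference between models. The members, lists and comparisons were chosen with earlier results of these data known. The scripts were tested on simulated counts with the same dispersion for every gene and no outlying mouse. That setting does not show how calls hold where 1 mouse stands apart, as in DSS and DNBS. Alternatives were RLE and upper quartile scaling, no filter, the filterByExpr filter, DESeq2 1.42.0 or edgeR on 2 groups alone, a replicate block, other controls and leaving out each mouse. Leaving out DSS mouse 8 and DNBS mouse 16 together, and other controls in contrasts between models, were added after seeing the data. Protein sequences were not used here. Some results are not reported here.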

Additional observations from a re-analysis of the deposited data

Results flagged for a closer look

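For the 40 members in the 2 groups of 4 mice (80 sets of 4 values were tested, and chance flags about 5% of such sets) 4 values, from 2 mice, lay far from those of the other mice of their group. TRUC mouse 3 was high for Oas1g, at 75.8 CPM with the others at 64.2 to 65.8 CPM, and for Mx2, at 6.05 CPM. IL-10 blockade mouse 3 was high for Ddx58, at 53.4 CPM with the others at 38.4 to 39.2 CPM, and for Mx1, at 17.9 CPM.

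The change against the control differed between the 6 models for 23 members (edgeR F test of equal changes, FDR over all genes), beside 60.5% of all genes. This is no more often than for genes in general, so it does not set the members apart. The adjusted p was 0.000302 for Oas1g, 0.00251 for Oas1a, 0.00388 for Rsad2, 0.00467 for Samd9l, 0.00576 for Ifi27l2a, 0.00604 for Irf7, 0.00733 for Ifi35, 0.0082 for Rtp4 and 0.00916 for Irf9. It was 0.0101 for Ifit1, 0.0158 for Ifitm3, 0.0197 for Mx2, 0.0198 for Oasl2, 0.0206 for Isg15, 0.0207 for Mx1, 0.0218 for Oasl1, 0.0266 for Oas3, 0.0268 for Oas2, 0.027 for Epsti1, 0.0279 for Ifi44, 0.0386 for Dhx58, 0.0422 for Xaf1 and 0.0495 for Herc6. With TCT set against the wild-type and anti-CD40 against the Rag2-/- controls, 21 members passed (58.9% of all genes).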

How the results depend on the processing

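No member call reversed under any alternative. Shares of all genes are given above for some of these fits only. The counts in this paragraph thus do not set the members apart. Of 140 calls of a member in a model, 55 were lost under at least 1 alternative, in 163 losses of which 138 came from leaving out a mouse. Calls that held under every alternative numbered 13 in TRUC, 22 in DSS, 36 in IL-10 blockade, 8 in TCT (Dtx3l, Epsti1, Ifit2, Ifit3, Ifitm3, Irf1, Parp9 and Samd9l), 6 in anti-CD40 (Bst2, Dtx3l, Ifit2, Ifitm3, Parp9 and Samd9l) and 0 in DNBS. Leaving out each mouse gave 15 to 23 members higher in TRUC (median log2 fold change 0.85 to 1.18), 23 to 40 in DSS (1.37 to 2.53), 0 to 16 in DNBS (0.25 to 1.30), 36 to 39 in IL-10 blockade (1.94 to 2.03), 8 to 18 in TCT (0.76 to 1.24) and 7 to 18 in anti-CD40 (0.85 to 1.20). It gave 0 to 25 members higher and 0 to 1 lower in DSS than in the other models, 0 to 16 lower in DNBS, 12 to 27 higher in IL-10 blockade, 0 to 2 lower in TCT and 17 to 39 past the test of equal changes, and 0 to 7 higher in Rag1-/- and 0 to 1 in Rag2-/- than in wild-type controls.

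On 2 groups alone, edgeR gave 0 members in DNBS and 32 in anti-CD40, and DESeq2 28 in TCT and 31 in anti-CD40, with fewer samples setting the spread. Upper quartile scaling moved the IL-10 blockade median to 1.82 and shifted the median of all genes by -0.18 there and by -0.14 in TRUC. Against wild-type controls TCT had 35 members higher (median 1.65). TCT against the other models had 3 members lower without a filter, 2 with filterByExpr and 0 with the other controls, with shares of all genes not given. Leaving out both DSS mouse 8 and DNBS mouse 16, chosen after seeing the data, gave 1 member higher than in the other models in TRUC, 3 higher and 1 lower in DSS, 24 lower in DNBS, 35 higher in IL-10 blockade, 1 higher and 5 lower in TCT and 1 lower in anti-CD40, with 39 past the test of equal changes (60.1% of all genes). Shares of all genes for the counts by model in this fit are not given, so these counts do not set the members apart. Apart from the left-out samples, the cause of these changes was not tested.

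A replicate block gave 34 members in TRUC and 40 in IL-10 blockade and lost no call. The shares of all genes in those fits are not given, so these counts do not set the members apart. The numbers were not found to pair mice, since same-numbered mice correlated at -0.09 to 0.09 in their deviations from the group means. Of the 12 ligand genes, 6 had no count in any mouse, and for these no change was detectable at this depth.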
